A study of Mus musculus with 87 samples.

Results

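The early transposon (ETn) loci of mouse chromosome 4 were the 294 places on that chromosome where reads next to ETn sequence piled up, out of 5018 such places in the genome. The read count of each deposited region was divided by the sum of its library and scaled to 1000000 ETn-paired reads (RPM), regions of 10 RPM or more from all 87 libraries were joined when they lay within 1000 bp, and every joined locus on chromosome 4 was kept. Chromosome 4 carries Chr4-cl, a cluster of KRAB zinc finger protein (KRAB-ZFP) genes that the study deleted, so loci inside the deleted interval, loci beside it and loci far from it could be compared between animals that carried 2, 1 or 0 copies of the deletion. Of the 294 loci, 12 overlapped the deleted interval, 268 lay on its centromere-proximal side and 14 on its distal side.

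The study enriched genomic DNA for ETn long terminal repeats (LTRs) to look for insertions in KRAB-ZFP cluster mutants. Chr4-cl was deleted in B6 embryonic stem (ES) cells, and the 16 libraries of strain B6 came from 12 Chr4-cl KO/KO animals, 2 Chr4-cl WT animals and 2 Chr4-cl KO/WT ES cell lines, each of them 1 clone. Of the 12 KO/KO animals, 3 were of generation F3 and 5 of generation F4. The genotype labels of the remaining 4 give no generation, and these animals are called founders here only as a group name. Crosses to 129X1/SvJ gave the animals labelled B6x129X1/SvJ (F1) and (F2), here called B6/129, with 27 KO/KO (KO), 14 KO/WT and 11 WT animals. In the F1 cross, 4 KO and 3 WT-labelled animals shared 2 KO/WT parents. In the F2 crosses, mating 1 (a KO/WT by a KO parent) gave 5 KO and 8 KO/WT juvenile tails, while mating 2 and mating 3 (KO/WT by KO/WT) gave 4 KO and 4 WT juvenile tails each. The remaining B6/129 animals were parents, second generation offspring or ear samples. The control line carried a deletion of another KRAB-ZFP cluster, on chromosome 2 (Chr2-cl), on a mixed background of B6, 129/Sv and 129/Sv-CP, with 5 KO/KO, 2 WT and 1 KO/WT animals (6 ear samples, and 2 tails of KO/KO animals) and an intact chromosome 4 cluster. Exact ages were not given, and the 11 further tissue or repeat libraries of animals already counted entered no group.

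ETn elements are LTR retrotransposons that lack their own coding sequence, move with the help of related coding elements, and still insert into the mouse germ line. Inbred strains therefore differ in which sites hold an ETn, and a site held by one strain can serve as a marker of that strain's chromosome in a cross. KRAB-ZFPs bind repeated DNA through their zinc fingers and recruit a silencing complex to it, and many of their genes sit in dense clusters that arose by duplication. Loci close to each other on a chromosome tend to be inherited together, and recombination separates them more often as their distance grows.

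The 2 designed guide sequences place the deletion, and are shown because every distance below was measured from their cuts. The capitals mark the adjoining PAM read from the mm9 assembly, and 20 of the 21 listed bases of each guide matched there.
guide 1: gcaaaggggctcctcgatggaTGG
guide 2: gtttatggccgtgctaaggtcAGG
Guide 1 matched chr4:144973820-144973839 on the minus strand and guide 2 matched chr4:147227524-147227543 on the minus strand. The interval between the cuts, chr4:144973823-147227526, was 2253704 bp long and held 88 annotated genes, 22 of them protein coding, among them Rex2, Zfp600, Zfp534, Zfp933, Gm13051 and Gm13225. The repair oligo of 117 bases joins both ends, with 56 bases of chr4:144973766-144973821 and 59 bases of chr4:147227528-147227586, and the capitals mark the 2 bases between the arms.
repair oligo: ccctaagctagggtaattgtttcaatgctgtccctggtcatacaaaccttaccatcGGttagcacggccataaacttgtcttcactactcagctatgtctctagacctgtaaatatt

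The capture probes are shown because near-identical LTR ends were captured together and each copy was then placed by its flank. Of 1274 ETn probes of 120 bases, 65 matched chromosome 4 in the mm9 assembly, and those below belong to a locus beside the deletion, to one inside it and to one near the chromosome end. The capitals mark the TG and CA with which an LTR begins and ends.
proximal flank, first bases: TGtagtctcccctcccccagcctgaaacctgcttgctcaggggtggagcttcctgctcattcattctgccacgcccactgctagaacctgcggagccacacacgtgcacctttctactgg
deleted interval, first bases: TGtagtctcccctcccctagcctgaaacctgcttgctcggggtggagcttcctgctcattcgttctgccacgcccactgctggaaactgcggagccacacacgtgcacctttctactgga
deleted interval, last bases: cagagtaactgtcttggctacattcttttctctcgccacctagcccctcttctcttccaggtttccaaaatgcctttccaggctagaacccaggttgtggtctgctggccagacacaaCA
distal end, first bases: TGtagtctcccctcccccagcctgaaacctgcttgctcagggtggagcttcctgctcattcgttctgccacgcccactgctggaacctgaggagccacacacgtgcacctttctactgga
They lie at chr4:144441467-144441586 (minus strand), chr4:146923828-146923947, chr4:146918868-146918987 and chr4:155296424-155296543 (all plus strand). The first bases of the LTR beside the deletion differed from those of the LTR inside it by 6 edits, and those of the LTR at the distal end by 4. Only reads that mapped to 1 place were counted, with the mate in an ETn, so the counts came from the sequence that flanks each copy.

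Depth ranged from 525419 to 1046650 ETn-paired reads per library. The main set held 76 libraries, and 2 of them stood apart. One B6 KO founder (replicate 1) had 31989 regions of a single read, against 2013 to 9771 in the libraries other than it and mating 2 WT replicate 1. Mating 2 WT replicate 1 reached the threshold at 181 chromosome 4 loci, 38 of them in that library alone, against 124 to 153 loci and at most 10 in libraries other than these. In addition, 4 of 37 main libraries labelled male had a chromosome Y share in the female range, 1 of them mating 2 KO replicate 3 and the others the 3 ear samples of mating 1. The B6 comparison is also given without the founder, that of matings 2 and 3 without the 2 libraries of mating 2, and the summaries over all B6/129 animals without all 6.

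Across the whole chromosome, most strong loci were held by every animal. In all 76 main libraries 100 loci reached 10 RPM, and all 100 lay within 1 kb of an ETn LTR end in the B6-derived mm9 reference. A second class of 15 loci was polymorphic, that is at 100 RPM or more in at least 2 libraries and under 10 RPM in at least 1, and was held by every B6 library. All 15 also had an LTR match in the reference. The reverse class, polymorphic and held by no B6 library, had 9 loci, none with a match. A further 5 loci were polymorphic and held by some B6 libraries, 49 were weak or intermittent, and 116 reached the threshold in at most 1 library. In total 137 of the 294 loci had a match. The 15 polymorphic loci held by every B6 library are called B6-held markers below, with 2 of them within 5 Mb of the deletion, 7 at 5 to 25 Mb, 2 at 25 to 50 Mb, 4 at 50 to 100 Mb and none farther away. The pairs at 77.22, 136.94 and 155.29 Mb, and the loci at 124.03 and 124.04 Mb, lie only a few kb apart. Each locus of a pair was counted separately, and whether a pair marks 1 insertion was not tested. The 15 markers may therefore stand for fewer insertions.

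The loci inside the interval followed the labelled genotypes. The 2 strongest proximal ones lay at 145.02 Mb (chr4:145019453-145021647, in an intron of Gm13227) and at 145.08 Mb (chr4:145080501-145083011, between genes, 17.7 kb from Gm13225). Their RPM summed to 1.65 to 58.4 in the 39 Chr4-cl KO animals (median 12), to 690 to 774 in the 14 B6/129 KO/WT animals (median 727) and to 930 to 1013 in the 11 B6/129 WT animals (median 993). The 2 B6 WT animals were at 883 and 893, and the 8 Chr2-cl animals at 919 to 957. The B6/129 genotypes did not overlap. The F1 animals labelled WT, which the text of the study calls heterozygous, lay with the WT animals of the other matings. ES cell clone #11 stood at 737, near the KO/WT animals, while clone #2 stood at 244, between the KO and the KO/WT animals. The 9 further or repeat libraries of KO animals were at 3.16 to 14.2, the adult tail of a KO/WT animal was at 722 and the repeat of a WT library at 973.

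**Figure D1:**
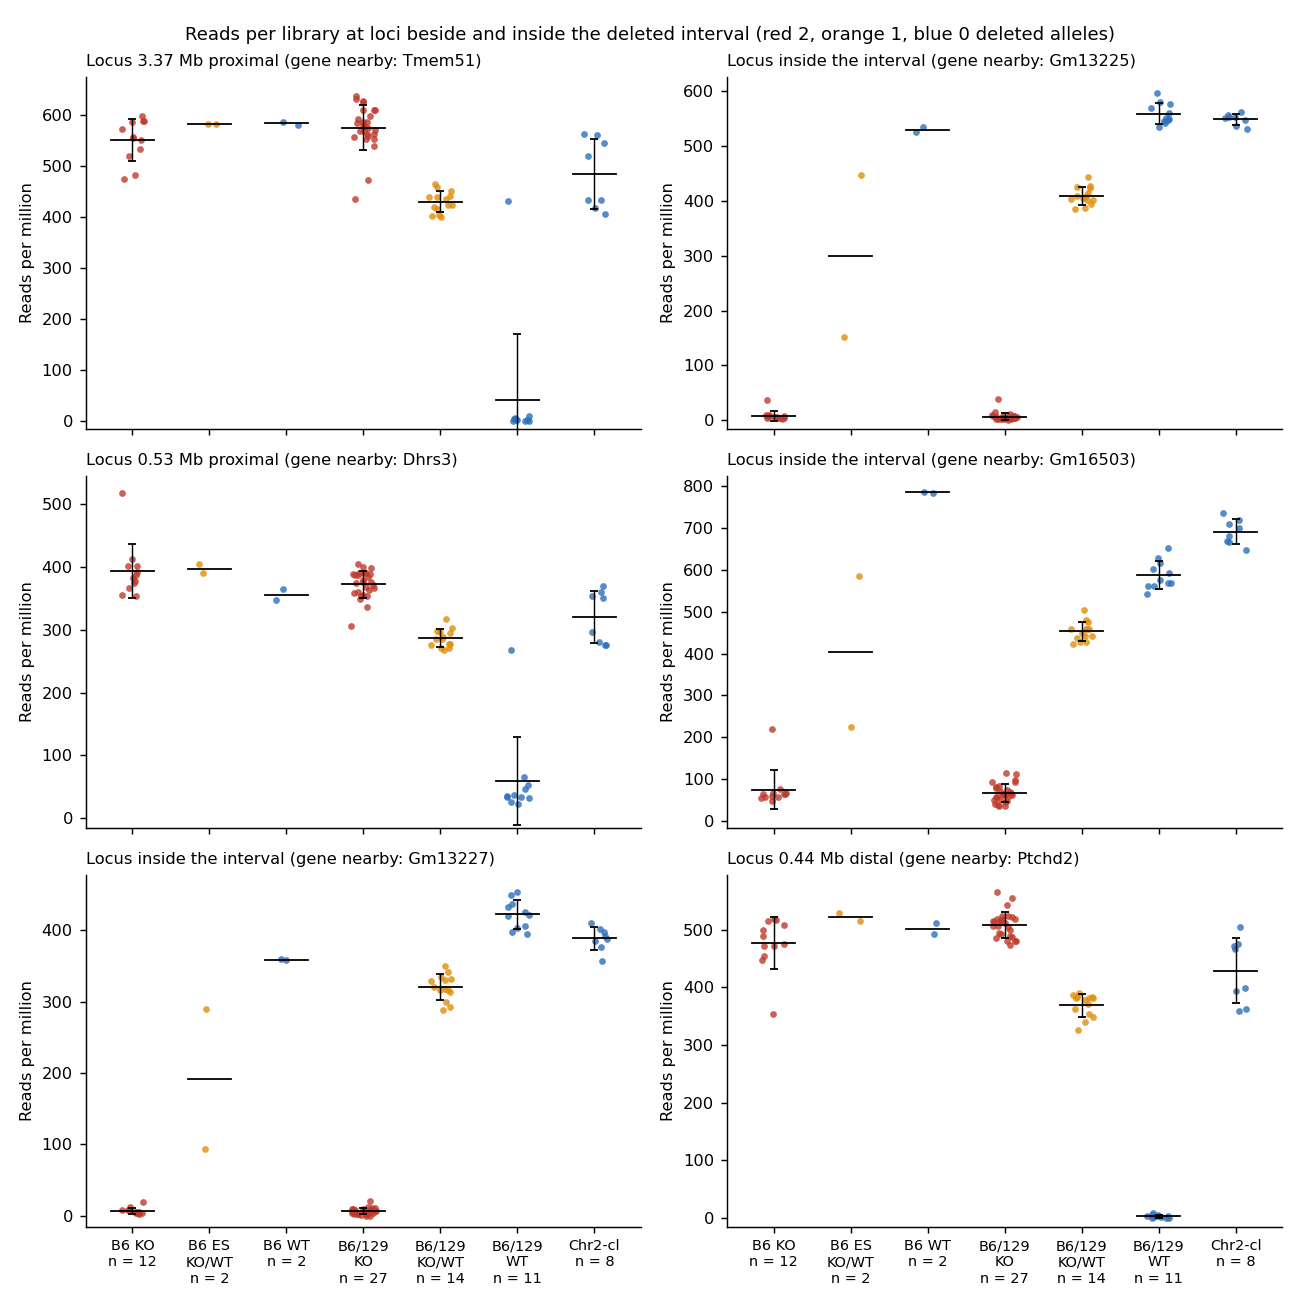
RPM per animal or ES line (points) at 6 chromosome 4 loci for each labelled genotype and strain, with the mean and SD drawn for groups of more than 2. Colour gives the number of deleted Chr4-cl alleles (red 2, orange 1, blue 0). Inside the interval (145.02 and 146.92 Mb) the KO animals are lowest, while beside it (144.44 and 147.67 Mb) the B6/129 KO animals sit at the B6 level and most B6/129 WT animals far below it.

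At 145.02 Mb, KO animals of matings 2 and 3 had 0 to 7.43 RPM (median 2.92, n = 8) and WT animals 398 to 454 (median 423, n = 8). The groups did not overlap, and the log2 difference was -6.84 (SE 0.33, adjusted p = 2.47e-09, edgeR quasi-likelihood test with Benjamini-Hochberg adjustment over 2615 loci). At 145.08 Mb the KO animals had 1.46 to 7.24 RPM (median 3.69) and the WT animals 542 to 596 (median 550), a log2 difference of -7.17 (SE 0.16, adjusted p = 6.15e-14). These residual reads were seen in KO animals of every cross, with 6.72 ± 4.42 RPM (SD, n = 27) at 145.02 Mb in B6/129 KO and 7.24 ± 4.49 (SD, n = 12) in B6 KO animals.

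A pair of loci in the distal part of the interval kept a larger share of their reads in KO animals. The locus at 146.92 Mb (chr4:146917867-146925152, 0.3 kb from Gm16503), source of the interval probes above, had 36.1 to 79.0 RPM in KO animals of matings 2 and 3 (median 49.8) and 560 to 651 in WT animals (median 596). The KO animals were all far below the WT animals but none was at 0, and the log2 difference was -3.50 (SE 0.12, adjusted p = 1.77e-11, edgeR). The B6/129 KO mean was 11.5% of the WT mean, and in B6 it was 9.66%. The locus at 146.11 Mb (chr4:146107781-146109027, 13.8 kb from Gm13051, which codes for a KRAB-ZFP) kept 46% of the WT mean in B6/129 KO animals, with 11.7 to 23.8 RPM in KO (median 15.4) and 31.9 to 42.7 in WT animals (median 37.6), a log2 difference of -1.23 (SE 0.13, adjusted p = 5.15e-05). In mating 2 alone its difference of -1.14 was not called. In B6 it kept 23.9%, and the 2 B6 WT animals stood higher than those of B6/129, at 78.5 and 85.2 RPM. 

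Among other distal loci, KO animals of the crosses kept 9.29% of the WT mean at 146.23 Mb, 1.22% at 146.17 Mb and 0.328% at 146.82 Mb. The proximal locus at 145.02 Mb kept 1.59%.

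Weak loci inside the interval separated the strains as well as the genotypes. At 146.82 Mb (chr4:146815715-146816638, in introns of Gm16889 and Gm17317) all 8 KO animals of matings 2 and 3 had no read and the WT animals had 21.4 to 38.5 RPM (median 31.2), at least 55-fold higher against a floor of 3 counts over the KO group (adjusted p = 1.09e-05, edgeR). The locus at 145.75 Mb (chr4:145753883-145754619, between genes, near Gm13251) had no read in the 2 B6 WT animals, the 2 B6 ES cell lines or the 39 KO animals. The 39 include the 12 B6 KO animals, so the strain difference rests on those WT animals and ES cell lines. The 11 B6/129 WT animals had 12.1 to 27.6 RPM (median 16.5) and the 14 KO/WT animals 8.59 to 20 (median 14.9). In matings 2 and 3 the level was at least 31.6-fold higher in WT than in KO animals, against a floor of 3 counts over the KO group. In mating 1 it was at least 21.5-fold higher in KO/WT than in KO animals, against the same floor. No LTR match lay there in the reference. In Chr2-cl animals it ranged from 0 to 17.9 RPM, with 4 of 8 at the threshold. The locus at 146.99 Mb (chr4:146991031-146991541, in an intron of 2610305D13Rik) had the reverse pattern. There the B6 WT animals had 44.9 and 46.4 RPM, the ES cell lines 12.7 and 34.4 and the Chr2-cl animals 28.9 to 44.3, while the 12 B6 KO animals had none (at least 145-fold lower) and no B6/129 animal exceeded 2.72. The loci at 146.17 and 146.23 Mb were near the threshold, with B6/129 WT means of 8.21 and 10.1 RPM against 0.10 and 0.94 in KO animals.

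KO/WT animals lay between the other genotypes but nearer to WT. At 145.02 Mb their mean was 0.758 of the B6/129 WT mean (320 ± 18 against 422 ± 20.1 RPM, SD, n = 14 and 11), at 145.08 Mb it was 0.732 and at 146.92 Mb 0.771. In mating 1 all 5 interval loci tested were lower in the KO than in the KO/WT animals, with 8.30 to 11.1 RPM in 5 KO and 292 to 350 in 8 KO/WT animals at 145.02 Mb (log2 difference -5.02, SE 0.08, adjusted p = 5.38e-14, edgeR) and 59.0 to 112 against 428 to 474 RPM at 146.92 Mb (log2 difference -2.30, SE 0.11, adjusted p = 2.15e-08).

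The deleted chromosome also carried ETn loci that lay outside the deletion. Comparing KO with WT in matings 2 and 3, 10 of 142 tested chromosome 4 loci were called (7.04%), 5 higher and 5 lower in KO animals. Of all 2615 loci tested in the genome 0.382% were called, 0.191% higher and 0.191% lower. On other chromosomes 0 of 2473 loci (0%) were called by edgeR, DESeq2 or limma, with 38 at an unadjusted p under 0.05 by edgeR. The 5 lower loci were the 5 tested inside the interval, and the 5 higher loci all lay within 1.59 Mb of it. Without mating 2 WT replicate 1 and mating 2 KO replicate 3, 8 loci were called, 3 higher and 5 lower. In the fit of all 16 libraries, the 5 higher loci were on the distal side those at 147.67 Mb (chr4:147667616-147670848, between genes, 5.5 kb from Ptchd2 and 440.1 kb from the interval) and at 147.69 Mb (chr4:147689506-147692275, an exon of Gm13206, 462.0 kb away). On the proximal side they were those at 144.44 Mb (chr4:144439298-144446729, between genes, 36.0 kb from Dhrs3, which codes for a retinaldehyde reductase), 143.80 Mb (chr4:143802192-143805106, a coding exon of C87977) and 143.38 Mb (chr4:143377585-143379065, near Gm13023).

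At 147.67 Mb the KO animals of matings 2 and 3 had 481 to 566 RPM (median 517) and the WT animals 0 to 8.62 (median 2.84), a log2 difference of 7.28 (SE 0.36, adjusted p = 4.33e-09, edgeR). Every KO animal was at the level of the B6 WT animals (492 and 512 RPM) and every WT animal under the threshold. At 147.69 Mb the KO animals had 462 to 560 RPM (median 492) and the WT animals 21.5 to 50.4 (median 36.8), a log2 difference of 3.77 (SE 0.13, adjusted p = 1.02e-11). Unlike its neighbour, this locus kept a low level in all WT animals and so belonged to the loci called in every library.

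At 144.44 Mb, whose LTR is the proximal flank shown above, the KO animals had 306 to 404 RPM (median 366) and the WT animals 22.4 to 267 (median 34.1), a log2 difference of 2.59 (SE 0.49, adjusted p = 0.0291, edgeR). The groups did not overlap, but 1 WT animal (mating 3 WT replicate 3, at 267) stood near the KO animals and the remaining 7 stood at 22.4 to 52.0. The call was lost on leaving out any of 13 of the 16 libraries, and in mating 3 alone. At 143.80 Mb the KO animals had 372 to 475 RPM (median 433) and the WT animals 199 to 412 (median 224), a log2 difference of 0.82 (SE 0.13, adjusted p = 0.00383), with the same WT animal at 412. At 143.38 Mb the shift was small, with 349 to 395 RPM in KO (median 362), 279 to 356 in WT animals (median 305) and overlapping groups (log2 difference 0.26, SE 0.05, adjusted p = 0.0218). That call was lost in each mating alone, on leaving out any of 8 libraries, and without mating 2 WT replicate 1 and mating 2 KO replicate 3 (log2 difference 0.24), as was that at 144.44 Mb (2.49).

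**Figure D2:**
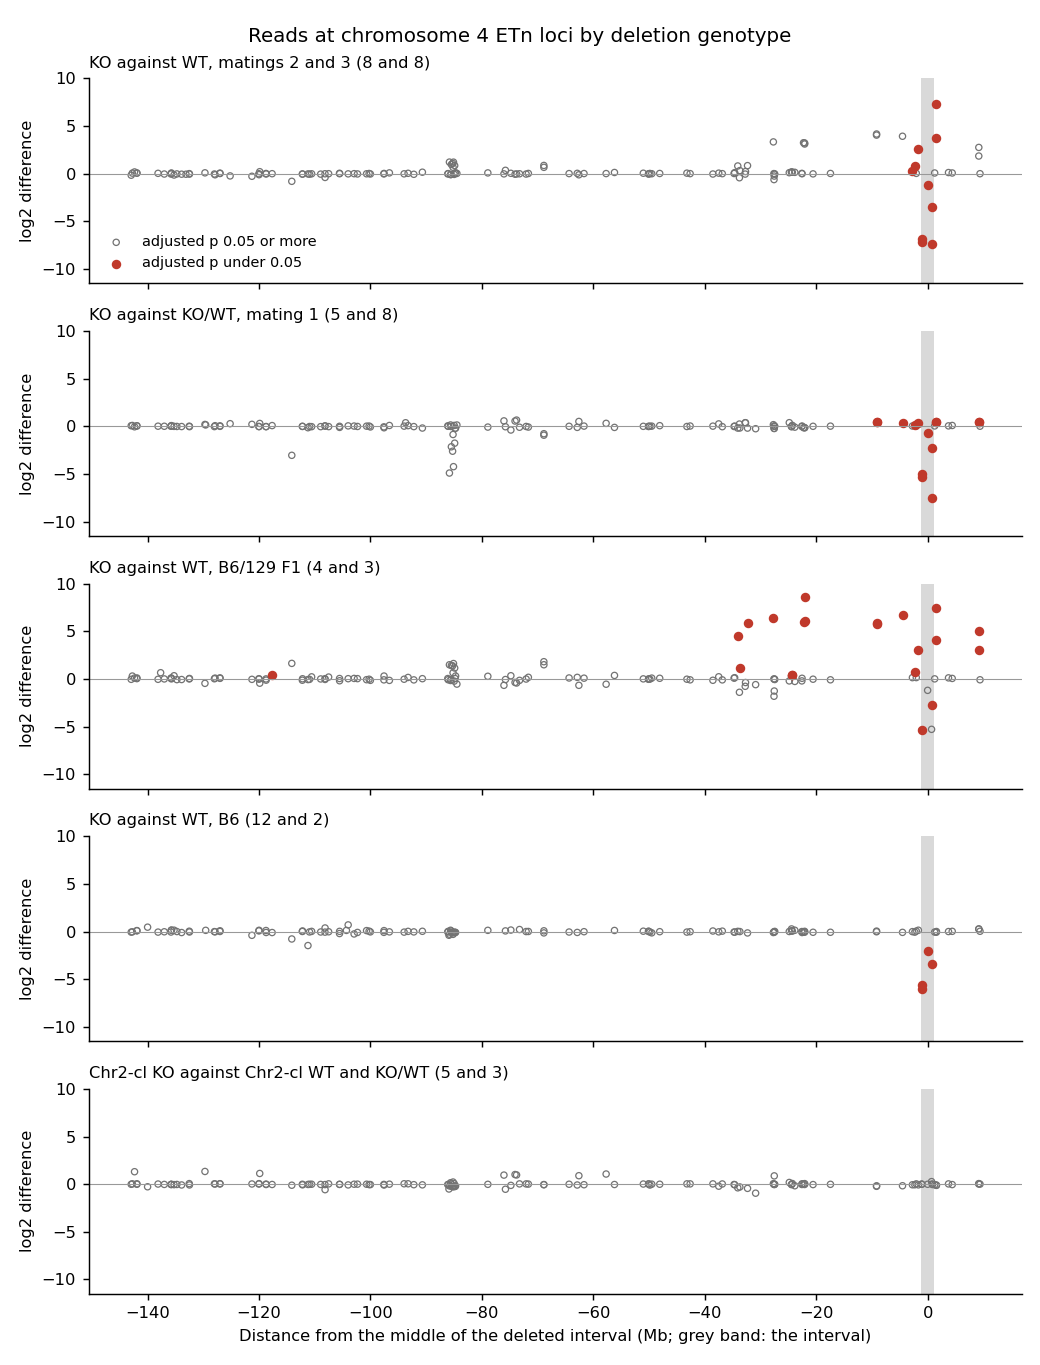
Fitted log2 difference (vertical axis) of each tested chromosome 4 locus against its distance in Mb from the middle of the deleted interval (horizontal axis, negative on the proximal side, interval in grey) in 5 comparisons, with called loci coloured. Loci inside the interval are low in all 4 Chr4-cl comparisons, higher loci gather beside it in the B6/129 crosses, and none is called in the Chr2-cl line.

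The next markers outward were high in all KO animals but failed the test through 1 WT animal. The locus at 141.60 Mb (chr4:141597384-141600417, an intron of Tmem51 and an exon of Gm13053, 3.37 Mb away) had 473 to 639 RPM in KO (median 588) and 0 to 5.17 in 7 WT animals, with the remaining one, mating 3 WT replicate 3, at 431. Its log2 difference of 3.93 (SE 1.03) had an adjusted p of 0.347 by edgeR, and without that animal it was 8.19 and called. The pair at 136.94 Mb (chr4:136935755-136937443 and chr4:136942859-136944980, 20 and 12.5 kb from Gm13011, 8.04 and 8.03 Mb away) behaved likewise. At the former, KO animals had 127 to 210 RPM and WT animals 0 to 3.08 apart from the same animal at 129, and the log2 differences of 4.05 and 4.17 (adjusted p = 0.445 for both) became 6.97 and 7.37 and were called without it. Without that animal 13 chromosome 4 loci were called in place of 10, and all 3 of these were also called in mating 2 alone and by limma.

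Beside the interval, that WT animal carried the B6-held loci in a block. It was at 129 and 104 RPM at the pair at 136.94 Mb, at 431 at 141.60 Mb, at 412 at 143.80 Mb and at 267 at 144.44 Mb, close to the KO/WT animals (means of 140, 112, 430, 400 and 286 RPM). On the other side of the interval it had 1.53 RPM at 147.67 Mb and inside it 437 at 145.02 Mb, as the remaining WT animals did. It had 9.20 RPM at 123.83 Mb (chr4:123830179-123833063, near Rragc, which codes for a Rag GTPase of amino acid sensing) and 1.53 at 124.04 Mb. Within the resolution of these loci, the block began between 124.04 and 136.94 Mb and ended between 144.44 and 147.67 Mb. It was not the only B6-held stretch of this animal. The markers from 60.84 to 113.78 Mb were at 0.747 to 0.953 of their mean over the B6 libraries, and the pair at 155.29 Mb at 0.575 and 0.562.

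Between 5 and 25 Mb edgeR called 0 of 17 tested loci in matings 2 and 3, with 10 at an unadjusted p under 0.05, while DESeq2 and limma called 2 each. At 25 to 50 Mb 0 of 25 loci were called by any of the 3 tools, with 2 at an unadjusted p under 0.05 by edgeR, and farther out none of 85 loci had such a p. At 123.83 Mb, 21.14 Mb from the interval, 6 of 8 KO animals and 1 of 8 WT animals reached the threshold, and the groups overlapped (4.94 to 404 RPM in KO, median 391, and 3.45 to 385 in WT, median 7.61, edgeR adjusted p over 0.99). The exception among the WT animals was mating 2 WT replicate 3, which also had 414 RPM at 113.78 Mb (chr4:113778313-113780678, near Skint11) and 1430 at 112.02 Mb (chr4:112022990-112032759, 25.8 kb from Skint9), whereas the other mating 2 WT animals were at 4.62 to 12.4 and 47.9 to 62.7. In mating 3 all 4 WT animals were high at both, at 391 to 430 and 1310 to 1410 RPM.

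The pair nearest the chromosome end differed between the matings. These loci lie at chr4:155288494-155291447 and chr4:155294067-155297916 beside Acap3, a gene for a GTPase-activating protein of Arf proteins, 8.06 and 8.07 Mb distal to the interval. At the latter the mating 2 WT animals had 1.77, 3.08, 1.38 and 1.53 RPM and the mating 3 WT animals 92.7, 89.3, 93.5 and 110. The 4 KO animals of mating 2 had 114 to 158 RPM and those of mating 3 had 140 to 150, so KO and WT differed strongly in mating 2 and modestly in mating 3. The difference between the matings in the KO effect, mating 3 minus mating 2, was -5.37 on the log2 scale (SE 0.24, adjusted p = 7.67e-09, edgeR interaction test) and -3.19 (SE 0.24, adjusted p = 2.70e-06) at its neighbour. These were 2 of 142 chromosome 4 loci tested (1.41%, against 0.0765% of all loci). Of 2473 loci elsewhere edgeR and limma called 0 and DESeq2 6, with 56 at an unadjusted p under 0.05 by edgeR. Without mating 2 WT replicate 3, the number called on chromosome 4 was 5, and with regions joined within 5000 bp the pair was 1 locus. One parent of mating 3, the KO/WT animal of mating 2, had 131 RPM there, in the range of the KO animals, although it had 383 RPM at 147.67 Mb and 299 at 145.02 Mb like other KO/WT animals.

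At 9 loci within 8.07 Mb of the interval, KO/WT animals had fewer reads than KO animals. In mating 1 14 of 144 chromosome 4 loci were called between 5 KO and 8 KO/WT animals (9.72%), 9 higher and 5 lower in KO. Of all loci 0.569% were called (0.379% higher and 0.19% lower), and on other chromosomes 0.0401%. At 147.67 Mb the KO animals had 493, 518, 480, 514 and 480 RPM and the KO/WT animals 340 to 390 (median 372), a log2 difference of 0.43 (SE 0.04, adjusted p = 6.00e-06, edgeR). The ranges did not overlap. At 141.60 Mb the KO animals had 570, 586, 569, 564 and 563 RPM and the KO/WT animals 401 to 452 (median 437), a log2 difference of 0.40 (SE 0.02, adjusted p = 2.49e-07). The same direction was called at 147.69 Mb (0.48), the pair at 136.94 Mb (0.49 and 0.47), 144.44 Mb (0.39), the pair at 155.29 Mb (0.41 and 0.43) and 143.80 Mb (0.16, adjusted p = 0.0468). The last of these was lost on leaving out any of 10 of the 13 libraries, and the first locus of the 155.29 Mb pair on leaving out any of 5. Over all B6/129 animals, the KO/WT mean was 0.725 of the KO mean at 147.67 Mb, 0.727 at 147.69 Mb, 0.747 at 141.60 Mb, 0.742 and 0.757 at 136.94 Mb and 0.769 at 144.44 Mb, while at 143.38 Mb it was 1.01. Farther away some loci had the reverse order in mating 1 without being called, such as 61.00 Mb with means of 2.94 RPM in KO and 57.9 in KO/WT animals (edgeR adjusted p = 0.511). Inside the interval, the ratio of KO/WT to WT means had been 0.732 to 0.771 at the 3 strong loci.

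In the F1 cross the marked stretch was longer. Of 142 chromosome 4 loci 21 were called between 4 KO and 3 WT-labelled animals (14.8%), 19 higher and 2 lower in KO. Of all loci 1.05% were called (0.901% higher and 0.15% lower), and on other chromosomes 0.278%. Among them were 9 of 17 loci at 5 to 25 Mb and 4 of 26 at 25 to 50 Mb, and over 100 Mb away 1 locus, at 28.44 Mb, with a log2 difference of 0.38 (adjusted p = 0.0451, named because it was the only one). At 113.78 Mb the KO animals had 410, 518, 333 and 399 RPM and the WT-labelled animals 5.43, 7.92 and 7.21, a log2 difference of 5.89 (SE 0.24, adjusted p = 7.72e-05, edgeR). At 123.83 Mb the KO animals had 535, 531, 387 and 493 RPM and the WT-labelled animals 5.43, 9.24 and 7.21. At 155.29 Mb (second locus) the values were 140, 107, 161 and 130 RPM against 4.07, 5.28 and 2.88. None of these groups overlapped, and all 3 WT-labelled animals were low at each B6-held marker from 113.78 Mb to the chromosome end. Tissue and genotype cannot be told apart fully here, since the WT-labelled samples were all tails and the KO samples were 2 blood, 1 tail and 1 ear sample. With tails only, which leaves 1 KO animal that is assumed to vary as the WT-labelled animals do, 13 loci were called, 8 higher and 5 lower.

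On the B6 background, the chromosome 4 loci called all lay inside the interval. Between 12 KO and 2 WT animals 4 of 129 chromosome 4 loci were called, all lower in KO and all inside the interval (3.1%, against 0.428% of all loci and 0.287% on other chromosomes). The 7 calls elsewhere included 5 of 175 loci on chromosome 3 (2.86%), and DESeq2 made 27 elsewhere. The WT samples were both blood, while the KO samples were tail, ear, blood and spleen, so tissue and genotype cannot be told apart fully. At 147.67 Mb the KO animals had 354 to 519 RPM (median 482) and the WT animals 512 and 492, and at 144.44 Mb 353 to 518 (median 385) against 347 and 365. The log2 differences were -0.07 (SE 0.10) and 0.14 (SE 0.11), with adjusted p = 0.999 for both by edgeR. None of the 125 loci tested outside the interval had an unadjusted p under 0.05 by edgeR, and DESeq2 and limma called none of them. The difference between the B6 and B6/129 animals in the KO effect was not tested. Inside the interval, 145.02 Mb had 3 to 19 RPM in KO (median 5.44) and 359 and 358 in WT animals (log2 difference -5.62, SE 0.34, adjusted p = 7.50e-08), and 146.92 Mb had 49.4 to 221 (median 65.0) and 785 and 783 (log2 difference -3.38, SE 0.34, adjusted p = 3.89e-05). The value of 221 was that of founder replicate 1, and without that library 4 loci were also called. Without B6 WT replicate 2 the locus at 146.11 Mb was not called and 3 loci were.

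The ES cell lines were lower than the B6 WT animals at the interval loci they held. At the named loci outside the interval their mean was 0.89 (113.78 Mb) to 1.35 times (first locus at 155.29 Mb) the B6 WT mean, with 1.04 at 147.67 Mb, 0.997 at 141.60 Mb, and 1.21 and 1.15 at the pair at 136.94 Mb. Inside the interval the ratios at the strong loci were 0.535 at 145.02 Mb, 0.565 at 145.08 Mb and 0.516 at 146.92 Mb, over lines that differed widely, with 93.6 and 290 RPM at 145.02 Mb and 224 and 585 at 146.92 Mb.

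In the Chr2-cl line no chromosome 4 locus was called between 5 KO animals and the 2 WT and 1 KO/WT animals (0 of 139, 0%, with 2 at an unadjusted p under 0.05, by edgeR). DESeq2 and limma also called 0, and the edgeR share was 0.115% of all loci and 0.121% on other chromosomes. The interval was intact in all 8, with 357 to 410 RPM at 145.02 Mb and 648 to 736 at 146.92 Mb. At the markers beside it they lay at or under the B6 level, with 359 to 505 RPM at 147.67 Mb (median 432) and 406 to 563 at 141.60 Mb (median 477). Here the KO-minus-control log2 differences were -0.09 (SE 0.13) and -0.16 (SE 0.13).

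The relative level of B6-held markers in KO animals was lower in each more distant class. Each marker's level was divided by its mean over the 16 B6 libraries and averaged over the markers of a distance class in each animal. In the 27 B6/129 KO animals this relative level was 1.04 ± 0.04 (SD) within 5 Mb, 0.857 ± 0.149 at 5 to 25 Mb, 0.765 ± 0.267 at 25 to 50 Mb and 0.579 ± 0.368 at 50 to 100 Mb. In the 11 WT animals it rose along the same classes, from 0.0404 ± 0.115 and 0.130 ± 0.137 to 0.241 ± 0.287 and 0.341 ± 0.350. The 14 KO/WT animals lay between but were as high in the last class as in the one before it, at 0.765 ± 0.035, 0.642 ± 0.156, 0.516 ± 0.390 and 0.534 ± 0.378. So KO and WT animals were farthest apart next to the deletion and nearest to each other in the most distant class. A marker had to be under 10 RPM in at least 1 main library, and within 5 Mb only WT animals were that low. The wide gap there therefore rests in part on how the markers were chosen. Without the 6 doubted libraries the KO means were 1.02, 0.857, 0.721 and 0.509 (n = 23) and the WT means 0.0433, 0.146, 0.258 and 0.364 (n = 10). With polymorphic loci defined at 50 and 5 RPM, 2 loci over 100 Mb away were added, where the means were 0.630 in KO, 0.742 in KO/WT and 0.635 in WT animals, so the KO level did not fall further there. These values describe animals that share parents, and no test was made of them.

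**Figure D3:**
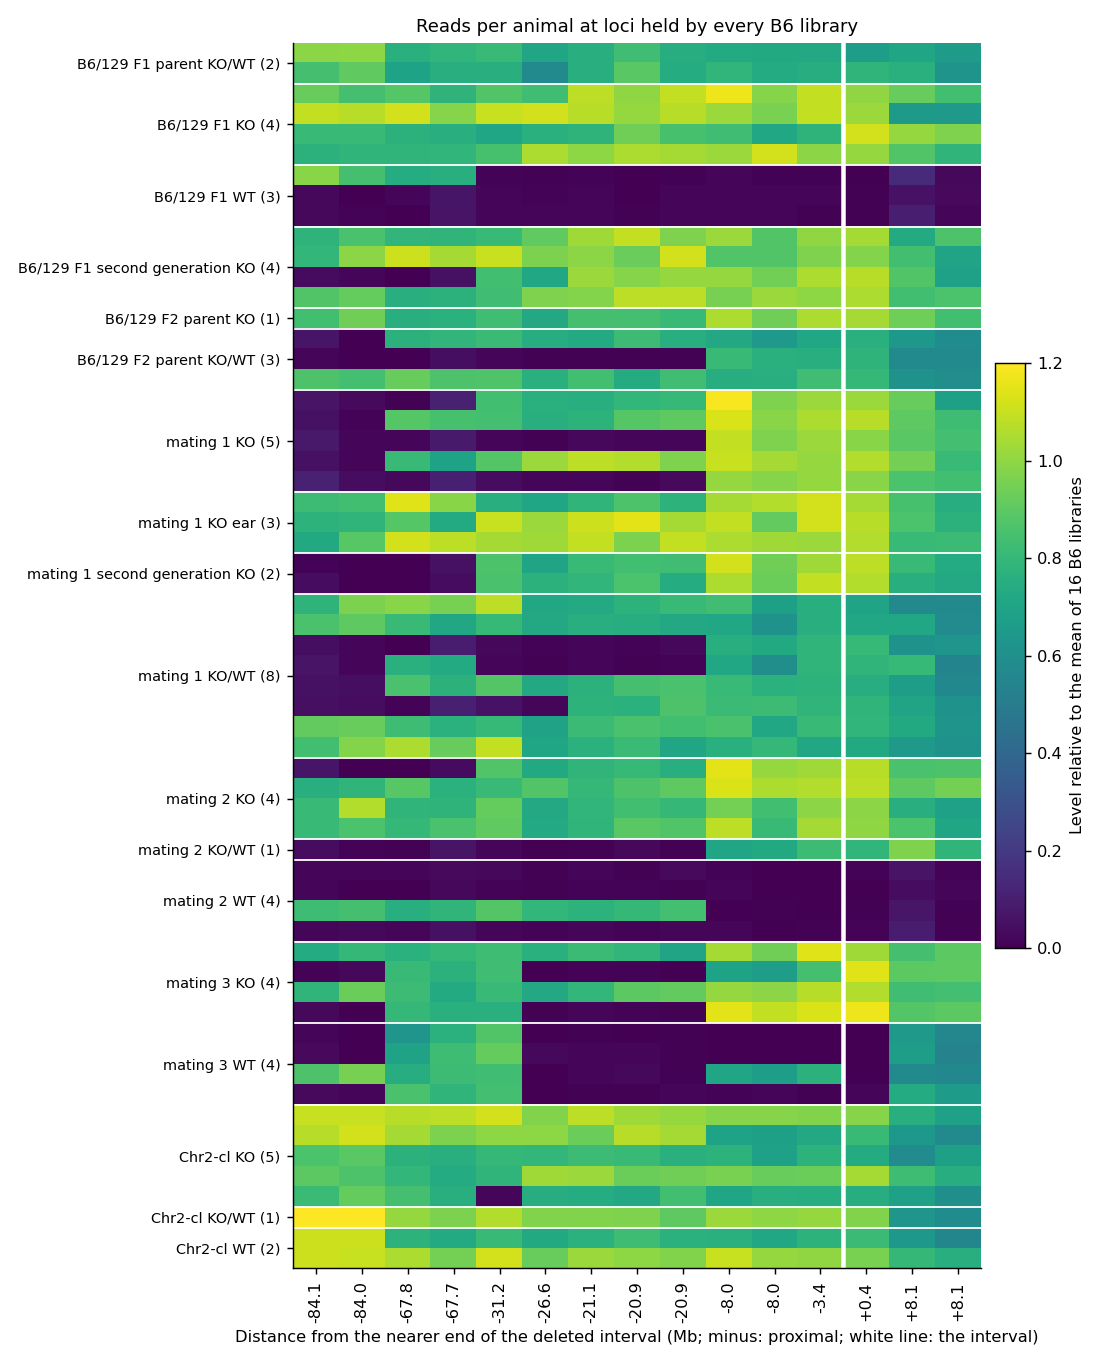
Level of the 15 polymorphic loci held by every B6 library (columns, in order along chromosome 4) in each B6/129 and Chr2-cl animal (rows, by genotype), relative to the mean of the 16 B6 libraries. KO rows are filled near the deletion, WT rows are mostly empty there, and blocks begin and end at different columns in different animals.

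Counting animals gave a similar picture, but the shares did not change evenly with distance from marker to marker. At the locus at 147.67 Mb, all 27 KO and all 14 KO/WT animals and 0 of 11 WT animals had at least 20% of the B6 level. At 141.60 Mb and at both loci at 136.94 Mb it was again 27 and 14, with 1 WT animal (9.09%). At 123.83 Mb it was 23 of 27 KO animals (85.2%), 10 of 14 KO/WT animals (71.4%) and 1 WT animal, and at 113.78 Mb 25 KO (92.6%), 9 KO/WT (64.3%) and 5 WT animals (45.5%). At 60.84 Mb, 84.13 Mb away and the most distant marker, it was 16 KO (59.3%), 7 KO/WT (50%) and 3 WT animals (27.3%). In mating 1 that locus was held by 0 of 5 KO tails, by all 3 KO ear samples and by 4 of 8 KO/WT tails, and the edgeR log2 difference between tails was -2.61 (adjusted p = 0.779). Without the 6 doubted libraries it was held by 12 of 23 KO animals (52.2%) and 3 of 10 WT animals (30%), and every locus from 136.94 Mb on was still held by all KO animals. Each locus at 77.22 Mb was then held by 16 of 23 KO animals (69.6%) and 6 of 10 WT animals (60%). KO and WT animals were thus nearer to each other there than at the more distant 60.84 Mb. The distal pair at 155.29 Mb was held by all KO and KO/WT animals and by 4 WT animals (36.4%), all 4 of mating 3. Chr2-cl animals held each of these loci in 8 of 8 cases except 113.78 Mb, with 7 of 8.

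**Figure D4:**
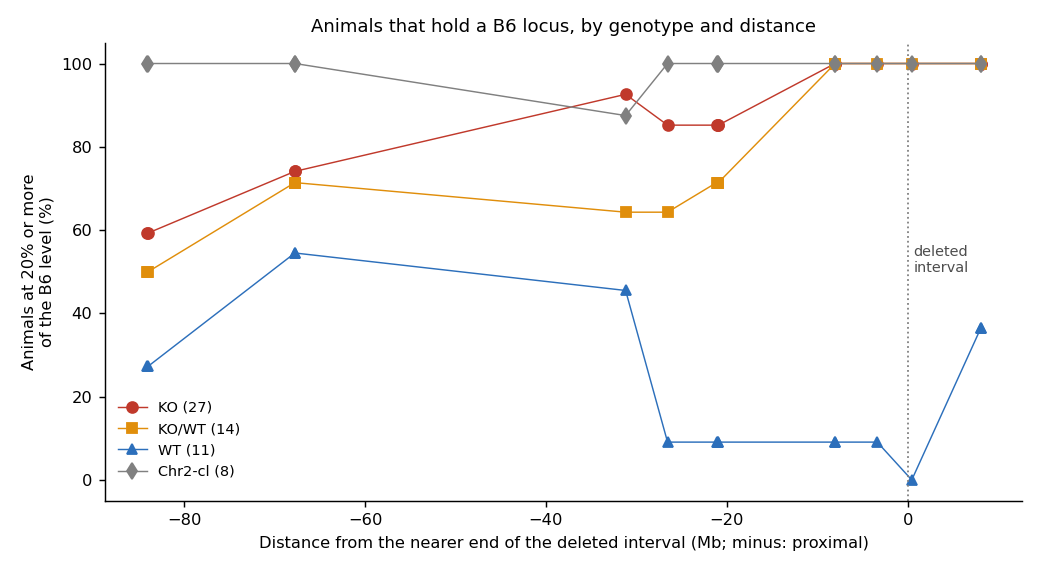
Percent of animals (vertical axis) with at least 20% of the B6 level at each of the 15 B6-held markers, against signed distance in Mb from the deleted interval (horizontal axis), for 27 KO, 14 KO/WT, 11 WT and 8 Chr2-cl animals. KO and KO/WT animals reach 100% next to the interval WT animals 0% to 9.09% there, and KO animals 59.3% at the most distant marker.

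The 9 polymorphic loci that no B6 library held all lay far from the deletion, at 3.74 to 118.58 Mb. The nearest, at 118.58 Mb (chr4:118577598-118579377, near Olfr1329, 26.39 Mb away), reached the threshold in 19 of 27 KO, 14 of 14 KO/WT and 11 of 11 WT animals, with 72.7 ± 49.8, 113 ± 19.9 and 120 ± 13.2 RPM (SD). KO animals thus lacked it most often, and the overlap was wide. The locus at 83.51 Mb (chr4:83505958-83508272, an intron of 4930473A06Rik) reached it in 24 KO, 12 KO/WT and 11 WT animals (238 ± 93.1, 230 ± 106 and 283 ± 48.6 RPM), and the most distant, at 3.74 Mb (chr4:3743632-3746324, near Lyn), in 25, 14 and 10. None of the 9 was called in any comparison (smallest adjusted p = 0.874, in the F1 cross at 118.58 Mb, edgeR). In Chr2-cl animals 3 to 5 of 8 held each of them.

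Most loci held by every library were not called. Outside the interval there were 98, with mean levels of 25.6 to 1454 RPM (median 447). In matings 2 and 3, 4 of the 98 were called (against 0.382% of all loci tested), with a median log2 difference of 0.01. In mating 1 it was 3 (0.569% of all loci) and in the F1 cross 8 (1.05%), so in these crosses the share called was above that of all loci. In the B6 and Chr2-cl comparisons it was 0 by edgeR (0.428% and 0.115% of all loci), with 0 and 1 at an unadjusted p under 0.05. The 4 called in matings 2 and 3 were those at 143.38, 143.80, 144.44 and 147.69 Mb, which all kept some reads in WT animals. The 8 called in F1 included 112.02 Mb, 32.94 Mb from the interval (log2 difference 4.49, adjusted p = 7.72e-05), and 112.39 Mb (1.17), 121.68 Mb (0.42) and 121.82 Mb (0.45). In mating 1 the lowest value was -2.14, at 60.62 Mb, and was not called (edgeR adjusted p = 0.660). Among the 152 members not tested in matings 2 and 3, the mean over the 16 libraries was under 10 RPM.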

How the data were processed

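ETn insertion sites were measured by capture of ETn LTR ends from genomic DNA, followed by paired-end sequencing, in 87 libraries. Per the methods, the authors mapped the mates of each 50-base read pair separately to the mm9 genome with Bowtie, kept unique non-duplicate reads whose mate overlapped an ETn repeat, merged them within 1000 bp with bedtools and deposited, per library, the raw read count of each region, with no replicates pooled and no normalization. For these tools, no version was stated in the sources read.

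Here counts were divided by the library sum to give RPM, and regions of 10 RPM or more were joined within 1000 bp into loci by Python 3.11.15, pandas 2.3.3 and NumPy 2.4.6. Counts per locus were tested with the edgeR 4.0.16 quasi-likelihood test (R 4.3.3) with the library sum as library size, a mean of 10 RPM or more over the libraries compared, and Benjamini-Hochberg adjustment over all loci tested (called at an adjusted p under 0.05). Matings 2 and 3 were fitted together with the mating as a covariate, and an interaction term compared their KO effects. The SE given with an edgeR log2 difference is the size of that difference divided by the square root of its F statistic. It is approximate and need not match the p-value. DESeq2 1.42.0, limma 3.58.1 on log2(RPM + 1), trimmed mean of M-values (TMM) library sizes, other thresholds, other joining distances, single matings or tissues and leaving out each library were tried as alternatives, and the fit without mating 2 WT replicate 1 and mating 2 KO replicate 3, and the summaries without 6 doubted libraries, were chosen after seeing the data. On data simulated for each of the 5 comparisons between groups, the edgeR test recovered 97% to 100% of the changed loci and called 5 to 13 unchanged loci. Recovery of loci held by only some animals of a group was not tested. Depth was 525419 to 1046650 reads per library, and floors of 3 counts cover counting error only, since no molecular identifiers were used. Groups came from the sample labels. Each animal entered a comparison once, so the spread is that between animals, many of which share parents.

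Positions and gene places are from mm9, with the nearest gene named for loci between genes. Loci were named by a fixed rule. It took every chromosome 4 locus overlapping the interval with a mean of 10 RPM or more in a group, the nearest polymorphic locus on each side, the loci called in matings 2 and 3 (nearest first, up to 20, and the 2 farthest), the 3 nearest polymorphic loci not called, and up to 5 loci with the smallest p in each other comparison. The loci at 28.44, 60.62, 60.84, 61.00, 112.39, 121.68, 121.82 and 124.04 Mb and those that no B6 library held were named after their values were seen. The members, lists and tests were chosen with earlier results of these data known.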

Additional observations from a re-analysis of the deposited data

Results flagged for a closer look

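For 181 combinations of a named chromosome 4 locus and a group of 4 to 10 libraries, the gap between an extreme library and its nearest neighbour was set against Dixon's 95% limit, and 30 exceeded it. Chance gives about 1 in 20 such groups. Of the 30, 9 came from 1 library, B6 KO founder replicate 1, the library with 31989 regions of a single read. It had 312 RPM at 123.83 Mb, 219 at 143.38 Mb, 249 at 143.80 Mb and 354 at 147.67 Mb, below the other founders, and 518 at 144.44 Mb, 45.7 at 146.11 Mb, 221 at 146.92 Mb and 185 and 432 at the pair at 155.29 Mb, above them.

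Mating 3 WT replicate 3 stood above the other WT animals of its mating at 136.94 Mb (129 and 104 RPM), 141.60 Mb (431), 143.80 Mb (412) and 144.44 Mb (267). Mating 2 WT replicate 3 stood above the others of its group at 112.02 Mb (1430), 113.78 Mb (414) and 123.83 Mb (385). Mating 3 WT replicate 4 had 19 RPM at 146.23 Mb, above 9.2 to 9.74 in the others.

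The remaining extreme values were in KO animals. In the F1 cross these were 1750 RPM at 112.02 Mb, 343 at 143.38 Mb, 38 at 145.08 Mb, and 543 at 147.67 Mb, and an animal of the second generation had 518 at 113.78 Mb. In mating 1 they were 162 at the second locus at 136.94 Mb and 114 at the second locus at 155.29 Mb. In mating 3, 1 animal had 395 at 143.38 Mb, 462 at 147.69 Mb and 140 at the second locus at 155.29 Mb. A B6 animal of generation F4 had 470 at 113.78 Mb. A Chr2-cl KO animal had 51.6 at 112.02 Mb, where the other 4 had 1363 to 1824.

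The KO effects of matings 2 and 3 differed at the pair at 155.29 Mb by the edgeR interaction test, with log2 differences between the effects of -3.19 and -5.37.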

How the results depend on the processing

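Counts of chromosome 4 loci called stayed within 1.5 times the reported count for all alternatives but those given here. The F1 comparison gave 13 in place of 21 with tail libraries only. The interaction gave 1 in place of 2 with regions joined within 5000 bp, and 5 without mating 2 WT replicate 3. Leaving out 1 library at a time gave 8 to 14 calls in matings 2 and 3, 12 to 15 in mating 1, 16 to 29 in F1, 3 to 4 in B6, 0 in Chr2-cl and 2 to 5 for the interaction. Inside the interval, 13 loci in place of 9 were counted with a locus threshold of 5 RPM. Relative levels by genotype and distance moved by less than the spread between animals under other definitions of a polymorphic locus, and without the 6 doubted libraries. Of the values of single named loci under alternatives, 1068 kept their call, 57 lost it, 9 gained one and 0 changed sign.

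In matings 2 and 3, 143.80 Mb was not called in mating 3 alone (log2 difference 0.62). In F1, 141.60, 143.80, 144.44, 147.67 and the first locus at 155.29 Mb were not called with tails only, and 145.02 Mb on leaving out any of 3 of the 7 libraries. The cause was not tested. No paired analysis was possible because replicate numbers were given in accession order and pair no animals. Loci near 10 RPM were limited by depth, since 10 RPM was as few as 5.25 reads.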
